A study of Pongo abelii with 8 samples.

Results

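The plasminogen activators, their receptor and inhibitors, and genes of thrombin and matrix biology that act beside them were followed in orangutan skin fibroblasts and in the induced pluripotent stem cells (iPSCs) made from them. Members were all probe sets that the platform annotation assigns to exactly 1 symbol among PLAT, PLAU, PLAUR, SERPINE2, SERPINB2, THBS1 and THBD. This rule found 14 of 22277 probe sets and 6 of the 7 listed genes, with 1 probe set for PLAT, 2 for PLAU, 3 for PLAUR, 1 for SERPINE2, 5 for THBS1 and 2 for THBD. No probe set carries the symbol SERPINB2 in the annotation used, and that gene was not analysed here.

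The plasminogen system turns the circulating proenzyme plasminogen into plasmin, a protease that dissolves fibrin and cuts matrix proteins at the cell surface. Tissue-type activator (tPA, from PLAT) and urokinase (uPA, from PLAU) are the serine proteases that make this cut. The receptor uPAR (from PLAUR) holds urokinase on the cell surface, and serpins such as SERPINE2, also called protease nexin-1, trap the activators and thrombin. Thrombospondin 1 (THBS1) is a matrix glycoprotein that binds proteases and activates latent TGF-beta, and thrombomodulin (THBD) is a membrane receptor that turns thrombin towards activation of protein C. Cultured fibroblasts are known as a source of most of these proteins.

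RNA came from 8 cultures of 2 healthy Sumatran orangutans (*Pongo abelii*), the female KB10460, 43 years old, and the male KB10973, 29 years old. Each animal gave 1 culture of dermal fibroblasts and 3 iPSC colonies, which were picked after retroviral delivery of human OCT4, SOX2, KLF4 and c-MYC and expanded on inactivated mouse embryonic fibroblasts. Each RNA was measured on its own Affymetrix array made for human transcripts, and the deposited log2 values were normalized with RMA, so that array medians lay between 3.74 and 3.82. By the growth protocol fibroblasts were kept in serum and lifted with trypsin while iPSCs were kept in serum replacement and lifted with collagenase, so cell type and culture cannot be told apart. Colonies of 1 animal are not separate animals, and p-values therefore measure the spread between cultures. The labelled cell types were checked on marker genes: of 9 fibroblast markers 8 were lower in the iPSCs, with the proteoglycan gene DCN at -8.67, the collagen gene COL3A1 at -7.52 and the protease gene FAP at -6.60 (log2 differences), and THY1 was higher (2.79). All 6 measured pluripotent cell markers were higher, led by LIN28A (7.16), L1TD1 (6.63) and DNMT3B (5.58).

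The cell types, with 6 iPSC and 2 fibroblast arrays, were compared by limma over all probe sets, and a probe set was called where the fold was above 1.5 and the p, adjusted by Benjamini and Hochberg's method, was below 0.05. THBS1, PLAUR, THBD and PLAT fell in the iPSCs, whereas PLAU and SERPINE2 were not called. Of the 14 member probe sets 8 were called lower in limma, 0 were called higher (0 at an unadjusted p under 0.05) and 6 were not called. Across the whole array 9.6% of probe sets were called lower, 12.2% higher and 21.8% in either direction. All 6 iPSC arrays lay below both fibroblast arrays for 9 member probe sets, against 18.2% of the array, and above both for 0, against 19.8%. Without regard to direction, 38% of the array did not overlap. A fall of more than 4-fold was called for 7 members, against 2.62% of the array. The median log2 difference was -1.65 over the members and -0.01 over all probe sets. In cultures of this kind, fewer cells of a type and less RNA per cell cannot be told apart.

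**Figure D1:**
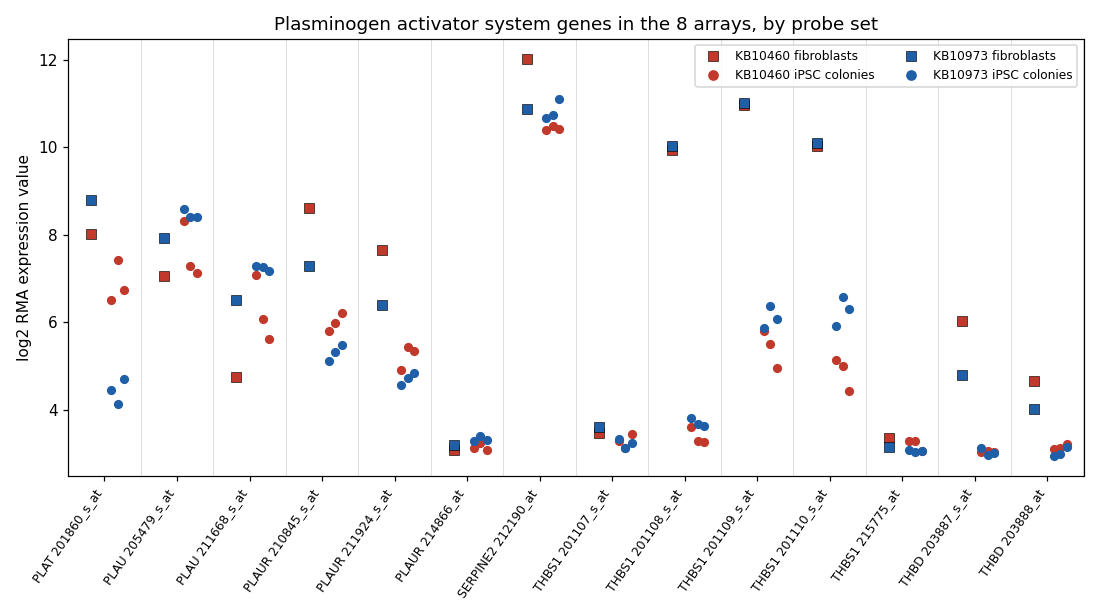
Log2 RMA expression values (vertical axis) of the 14 member probe sets (horizontal axis) in the 8 arrays, with squares for the fibroblast culture and circles for the 3 iPSC colonies of each donor, coloured by donor. The circles lie far below the squares for THBS1 201108_s_at, 201109_s_at and 201110_s_at, and overlap with them for PLAU.

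Of the activators, PLAT was called lower and PLAU was not called, and the difference between the genes was not tested. PLAT, which encodes tissue plasminogen activator, had log2 values of 8.02 in the KB10460 fibroblasts and 8.79 in the KB10973 fibroblasts at its probe set 201860_s_at. In KB10460 colonies 1, 2 and 3 it was at 6.50, 7.42 and 6.75, and in those of KB10973 at 4.46, 4.14 and 4.72. All colonies were thus below both fibroblast cultures, and the KB10973 colonies were the lowest. The iPSC mean was 5.67 ± 1.39 (SD, n = 6) and the fibroblast mean 8.41 ± 0.54 (SD, n = 2), a log2 difference of -2.74 (standard error 0.86, adjusted p = 0.040 from limma), or 6.68-fold lower. The call is close to the threshold. It ended in limma in 8 of 14 alternatives (adjusted p 0.057 to 0.20), which were the fits without either fibroblast array, without any 1 of the KB10973 colonies, with colonies averaged within donor, with arrayWeights and with a robust trend.

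PLAU, which encodes urokinase, was not called in either direction. Its probe set 205479_s_at was at 7.07 and 7.93 in the KB10460 and KB10973 fibroblasts. The KB10460 colonies 1, 2 and 3 had values of 8.32, 7.29 and 7.13, and the KB10973 colonies 8.60, 8.42 and 8.42. The cell types overlapped, since KB10460 colonies 2 and 3 lay between the fibroblast cultures and the other 4 colonies above both. The log2 difference was 0.53 (95% interval -0.45 to 1.51, adjusted p = 0.44 from limma), an interval that holds both a small fall and a rise of more than 2-fold. The other probe set, 211668_s_at, was at 4.75 and 6.51 in the fibroblasts, at 7.09, 6.07 and 5.63 in the KB10460 colonies and at 7.30, 7.27 and 7.18 in the KB10973 colonies. Its log2 difference was 1.12 (95% interval -0.14 to 2.39, adjusted p = 0.18 from limma). With the donor as a block it was called higher (adjusted p = 0.037), as it was without the KB10973 fibroblast array (2.00, adjusted p = 0.042), while without the KB10460 fibroblast array the difference was 0.25. Within each donor both PLAU probe sets were higher in the iPSC mean than in the fibroblasts, by 0.51 and 1.51 in KB10460 and by 0.55 and 0.74 in KB10973.

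PLAUR, the urokinase receptor, fell. At 210845_s_at the KB10460 fibroblasts had a log2 value of 8.61 and the KB10973 fibroblasts 7.29. The KB10460 colonies were at 5.80, 5.99 and 6.21 and the KB10973 colonies at 5.11, 5.33 and 5.49. No colony reached a fibroblast culture, and the nearest colony was 1.08 below the lower one. The log2 difference was -2.30 (standard error 0.37, adjusted p = 0.0012 from limma), a 4.91-fold fall. At 211924_s_at, with 7.66 and 6.39 in the fibroblasts and 4.56 to 5.43 in the colonies, the fall was 4.15-fold (-2.05 on the log2 scale with a standard error of 0.33, limma adjusted p = 0.0012). The size depends on the fibroblast culture: without the KB10973 fibroblast array the differences were -2.96 and -2.69, and without the KB10460 one they were -1.63 and -1.42. Averaging the colonies of each donor ended both calls (adjusted p = 0.062 and 0.066 from limma). The third PLAUR probe set, 214866_at, stayed at 3.09 to 3.40 in all 8 arrays, no higher than percentile 34.6 of an array in any of them, and was not called.

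SERPINE2, the inhibitor, had a high signal in both cell types. Its probe set 212190_at was at 12.02 in the KB10460 fibroblasts and 10.88 in the KB10973 fibroblasts. The KB10460 colonies had values of 10.39, 10.48 and 10.41, and the KB10973 colonies 10.67, 10.73 and 11.11. KB10973 colony 3 lay above the fibroblasts of its donor, so the cell types overlapped. The probe set stood at percentile 98.5 of an iPSC array at the median and at percentiles 99.5 and 98.7 of the fibroblast arrays. The log2 difference was -0.82 (95% interval -1.46 to -0.18, adjusted p = 0.059 from limma). It was -1.39 and called without the KB10973 fibroblast array (adjusted p = 0.0029), against -0.25 without the KB10460 one (adjusted p = 0.60).

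THBS1, thrombospondin 1, fell the most among the members in these measured values. At 201108_s_at the fibroblasts were at 9.94 and 10.04, the KB10460 colonies at 3.61, 3.30 and 3.27 and the KB10973 colonies at 3.81, 3.67 and 3.63. The log2 difference was -6.44 (standard error 0.15, adjusted p = 4.5e-09 from limma), an 86.7-fold fall. At 201109_s_at the fibroblasts were at 10.97 and 11.01, the KB10460 colonies at 5.81, 5.52 and 4.96 and the KB10973 colonies at 5.88, 6.37 and 6.09, which gave -5.22 (standard error 0.31, adjusted p = 2.3e-06). At 201110_s_at the fibroblasts were at 10.04 and 10.09, with 5.15, 5.00 and 4.44 in the KB10460 colonies and 5.91, 6.57 and 6.31 in those of KB10973, a difference of -4.50 (standard error 0.51, adjusted p = 1.5e-04). The fibroblast cultures of the 2 donors differed by at most 0.09 at each of these probe sets, and the smallest gap between a colony and a fibroblast culture was 3.47. These 3 calls held in all 14 alternatives. The remaining probe sets, 201107_s_at at 3.13 to 3.60 and 215775_at at 3.05 to 3.36, were low in every array and were not called.

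THBD, thrombomodulin, fell to the low end of the scale. At 203887_s_at it was at 6.02 in the KB10460 fibroblasts and 4.79 in the KB10973 fibroblasts, and at 2.98 to 3.13 in all 6 colonies, with a percentile of 12.4 at the median. The log2 difference was -2.36 (standard error 0.25, adjusted p = 9.2e-05 from limma), a 5.12-fold fall that such a low iPSC value may understate. Without the KB10973 fibroblast array it was -2.97, and without the KB10460 one -1.74. At 203888_at, with 4.65 and 4.03 in the fibroblasts and 2.94 to 3.23 in the colonies, the fall was 2.37-fold (-1.25 on the log2 scale with a standard error of 0.15, limma adjusted p = 2.3e-04). Both calls held in each of the 13 alternatives that tested them. THBD is known from endothelium, and of 7 measured endothelial markers 1 was lower in the iPSCs (PECAM1, -3.52), 2 were higher (KDR, 2.81, and TEK, 1.93) and 4 were not called. The mean log2 value of this list was 4.42 and 3.96 in the fibroblasts and 4.22 to 4.75 in the colonies. PECAM1 was at 8.10 and 6.65 in the KB10460 and KB10973 fibroblasts, and the junction cadherin CDH5, which defines endothelium, was at 3.10 in both. Of 5 monocyte and macrophage markers CD14 (-3.33) and CD163 (-1.31) were lower in the iPSCs. In the KB10460 and KB10973 fibroblasts CD14 was at 7.99 and 5.42 and CD163 at 4.45 and 4.51. In the same order CSF1R was at 3.42 and 3.44 and ITGAM at 3.79 and 3.53. The leukocyte marker PTPRC was at 3.33 and 3.26 in the fibroblasts. The mean of the monocyte and macrophage list was 4.60 and 4.03 in the fibroblasts and 3.23 to 3.46 in the colonies. The part of endothelial, monocyte or macrophage cells in the THBD result was not tested.

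**Figure D2:**
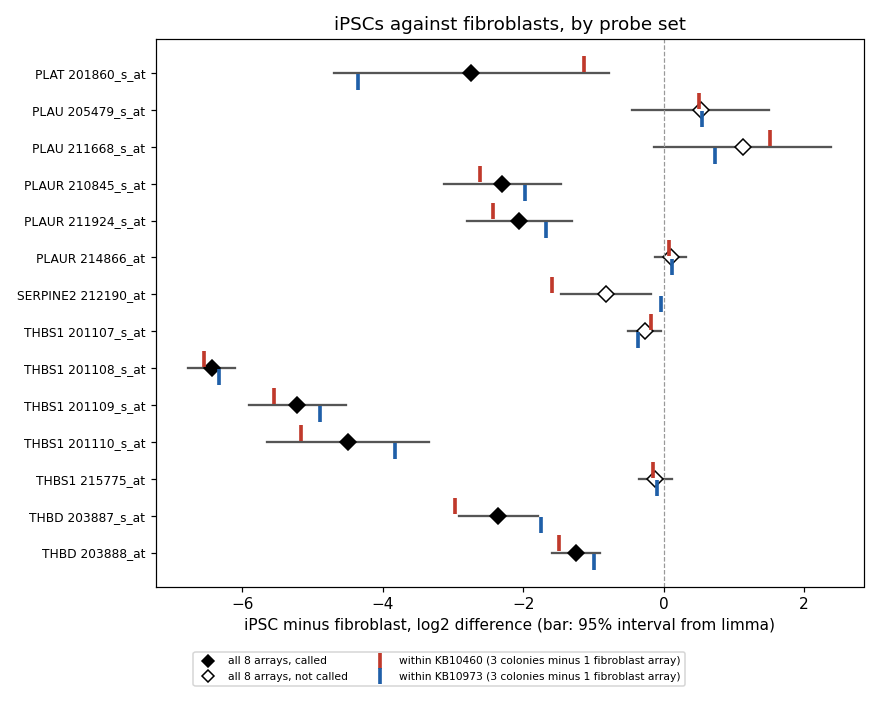
Log2 difference, iPSC minus fibroblast (horizontal axis), for each member probe set (vertical axis), with diamonds for the fit over all 8 arrays (filled where called), grey bars for its 95% interval and coloured ticks for each donor taken alone. The diamonds of THBS1 reach -6.44, those of PLAU lie above 0 with bars across it, and the ticks of the donors are far apart for PLAT (-1.13 in KB10460 and -4.35 in KB10973) and SERPINE2 (-1.59 and -0.04).

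Among the iPSCs, PLAT was the member with the largest difference between the donors. The KB10973 mean was 4.44 ± 0.29 (SD, n = 3) and the KB10460 mean 6.89 ± 0.48 (SD, n = 3), a log2 difference of -2.45 (standard error 0.24, adjusted p = 0.024 from limma), or 5.47-fold. The groups did not overlap, and the order was the opposite of that in the fibroblasts, where KB10973 was the higher culture by 0.77. PLAT was the 1 member among 20 called probe sets, 0.0898% of the array, of which 10 were lower in KB10973 (0.0449%). Omitting KB10460 colony 3 ended the call in limma, as did omitting any KB10973 colony, averaging KB10973 colonies 1 and 2, or taking the colony number as a block (adjusted p 0.060 to 0.17). In all 12 alternatives the difference stayed between -2.64 and -2.18.

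No other member was called between the donors' iPSCs. Before adjustment 9 of the 14 member probe sets had a p under 0.05, as had 2265 of all 22277. PLAU was higher in the KB10973 colonies at both probe sets (0.90, 95% interval 0.24 to 1.56, and 0.98, 95% interval 0.23 to 1.73), with KB10460 colony 1 close to them and KB10460 colonies 2 and 3 lower. Without KB10460 colony 1 both PLAU probe sets were called (1.27 and 1.40, adjusted p = 0.0063 and 0.011 from limma), as was THBS1 201110_s_at (1.54, adjusted p = 0.038). PLAUR went the other way and was lower in KB10973 (-0.69 with a standard error of 0.13, at 210845_s_at), with no overlap between the donors. SERPINE2 was higher in KB10973 by 0.41 (95% interval 0.12 to 0.69), again with no overlap. The share of the whole array with no overlap between the donors' iPSCs was not counted, so such separations, also that of PLAT, stand as description. THBS1 was higher in KB10973 by 1.40 at 201110_s_at (adjusted p = 0.086 from limma) and by 0.69 at 201109_s_at, where KB10460 colony 1 at 5.81 lay close to KB10973 colony 1 at 5.88. THBD, near background in every colony, differed by -0.01 (95% interval -0.19 to 0.17) at 203887_s_at.

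Noted after the values were seen, urokinase and its receptor took opposite orders over the colonies. From highest to lowest PLAU 205479_s_at the order was KB10973 colonies 1, 2 and 3 and KB10460 colonies 1, 2 and 3, and PLAUR 210845_s_at ran from lowest to highest in that same order. The Spearman rho was -1.0 and Pearson's r -0.90 over the 6 colonies, and with the second PLAUR probe set, 211924_s_at, rho was -0.94. The third PLAUR probe set, 214866_at, which was low in every array, ran the other way (rho 0.77 with either PLAU probe set). KB10973 colonies 2 and 3 were both at 8.42 for PLAU 205479_s_at, and the rho of -1.0 ranks them by a difference smaller than this rounding. At PLAU 211668_s_at these colonies were at 7.27 and 7.18, and rho with PLAUR 210845_s_at was also -1.0. The 6 points share 2 donors and 1 normalization, and this was 1 of 15 pairs of member genes, so the values stand as a description. PLAT ran with PLAUR (rho 0.89) and against PLAU (rho -0.89). The fibroblast cultures also had PLAU higher and PLAUR lower in KB10973 than in KB10460.

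**Figure D3:**
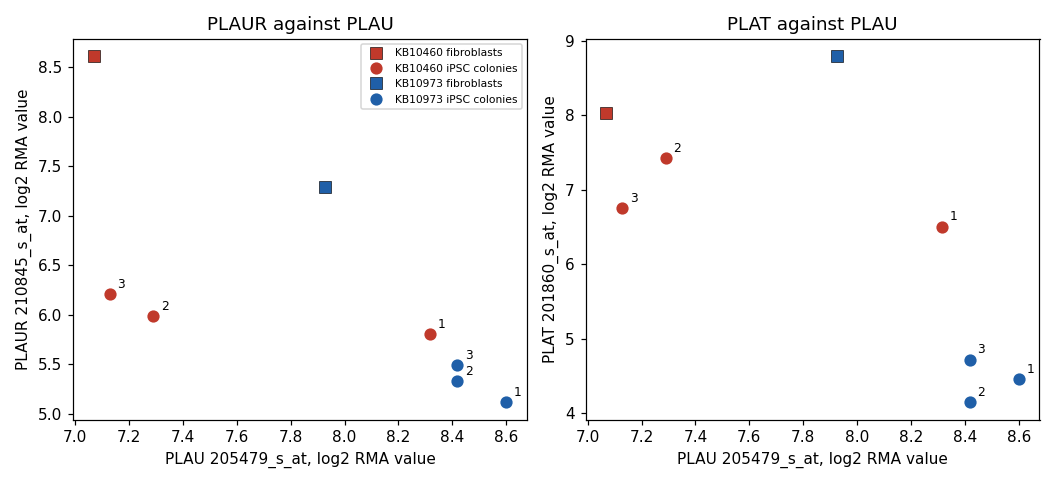
Log2 RMA values of PLAUR (left) and PLAT (right) on the vertical axes against PLAU on the horizontal axes, with 1 point for each array, squares for fibroblasts, circles for iPSCs, colours for donors and numbers for colonies. In the left panel the circles descend from KB10460 colony 3 (7.13 and 6.21) to KB10973 colony 1 (8.60 and 5.11), and both squares lie above the line of circles.

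The change from fibroblast to iPSC was then compared between the donors, as the interaction of donor and cell type in limma. The single fibroblast array of a donor is taken to vary as much as its colonies do, so these tests rest on single cultures. Of the 14 member probe sets 3 were called, against 2.91% of the array. On the log2 scale PLAT differed by -1.13 in KB10460 and by -4.35 in KB10973, a difference of -3.22 (standard error 0.49, adjusted p = 0.017). SERPINE2 differed by -1.59 in KB10460 and by -0.04 in KB10973, a difference of 1.55. SERPINE2 passed the call, but most of its value is the gap of 1.14 between 2 single fibroblast arrays. Its iPSC means differed by 0.41. THBD at 203887_s_at differed by -2.97 in KB10460 and by -1.75 in KB10973, a difference of 1.22. It passed the call, but the iPSC means were 3.06 and 3.05, near background, so that the value is the gap of 1.23 between 2 single fibroblast arrays. The spread of colonies does not give the spread of fibroblast cultures, and no p is given for SERPINE2 or THBD. The PLAT call ended without KB10973 colony 1 and the SERPINE2 call without KB10460 colony 3.

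The genes next to PLAT on its chromosome were compared between the donors' iPSCs as well. They were chosen after the PLAT value was seen, as the 10 nearest measured protein-coding genes on each side in the gene order of the orangutan assembly NHGRI_mPonAbe1-v2.0. Of these 20 genes 0 were called by limma (lowest adjusted p = 0.35, 3 genes at an unadjusted p under 0.05), and their median log2 difference was 0.04. AP3M2 and IKBKB, which flank PLAT among the measured genes, differed by -0.16 and -0.08. The WNT inhibitor gene DKK4, the third measured gene on the side of IKBKB, was the lowest at -1.48, with an adjusted p of 0.67.

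**Figure D4:**
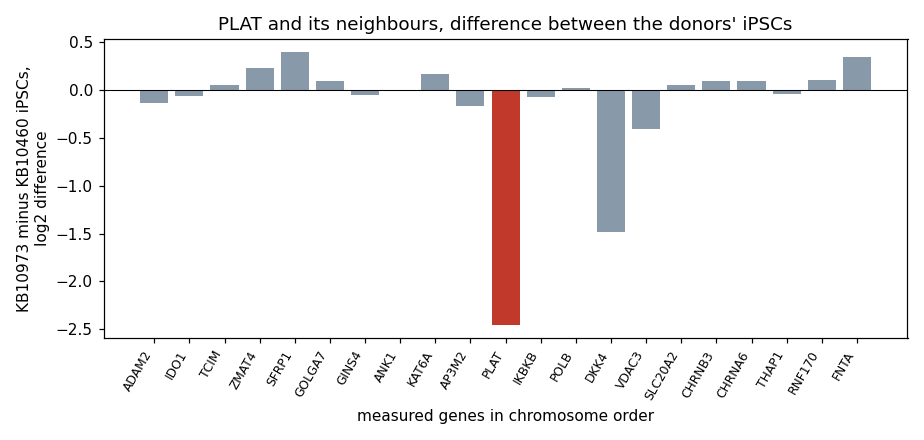
Log2 difference between the iPSCs of the donors, KB10973 minus KB10460 (vertical axis), for PLAT (red bar) and the 10 measured genes on each side of it in chromosome order (grey bars, horizontal axis). The bar of PLAT reaches -2.45, DKK4 reaches -1.48 and the other neighbours lie between -0.40 and 0.39.

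Other genes of these pathways were taken at 1 probe set each, the one with the highest mean. Of 18 further genes of the plasminogen system 2 were higher in the iPSCs, 4 were lower and 12 were not called, with a median log2 difference of -0.08. ENO1, a glycolytic enzyme that also binds plasminogen at the cell surface, was higher by 1.23, and the plasminogen receptor PLGRKT by 0.88. The collagen receptor MRC2, a partner of the urokinase receptor, was lower (-1.59), as were the protease inhibitor A2M (-1.26), the receptor IGF2R (-1.08) and the serpin clearance receptor LRP1 (-0.65). PLG itself was low in all cultures (3.20 in the iPSCs and 3.10 in the fibroblasts) and not called. ANXA2 and S100A10, which together bind tissue activator and plasminogen on cells, had high values in both cell types, 11.68 against 11.96 and 9.69 against 9.46 (iPSCs against fibroblasts), and were not called.

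Of 17 genes of coagulation and the thrombin receptors 4 were lower in limma, 0 were higher (0 at an unadjusted p under 0.05) and 13 were not called, with a median of -0.25. The inhibitor TFPI2, a matrix protein that blocks plasmin among other proteases, fell by 5.94 on the log2 scale. TFPI, the inhibitor of the tissue factor pathway, was lower (-2.81), as was protein S (PROS1, -1.12). PROCR, the protein C receptor, which acts with thrombomodulin, was also lower (-1.02). F3, which encodes tissue factor, was at 4.07 in the iPSCs and 4.33 in the fibroblasts and was not called.

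Of 14 other serpins 6 were lower, 1 was higher and 7 were not called, with a median of -0.34. SERPINF1, an anti-angiogenic serpin, was lower (-6.26), as were SERPINB3 (-5.68) and SERPINB7 (-3.33). The size of the latter 2 differences depends on the fibroblast culture, since SERPINB3 was at 10.15 and SERPINB7 at 7.65 in the KB10460 fibroblasts, against 7.78 and 5.39 in those of KB10973. SERPINB3 has a near-identical neighbour that its probe set may not separate. SERPINB9, the inhibitor of granzyme B, was higher in the iPSCs, at 8.02 ± 0.35 (SD, n = 6) against 2.88 ± 0.03 (SD, n = 2), a log2 difference of 5.14 (adjusted p = 3.0e-07 from limma). Of 11 members of the thrombospondin family and partners of THBS1, 5 were lower, 1 was higher and 5 were not called, with a median of -0.33. THBS2 was lower (-5.69), as were the matrix protein TNC (-5.18) and CD47, a receptor of THBS1 (-2.53), whereas THBS4 was higher (1.09). The scavenger receptor CD36, which also binds THBS1, was at 3.59 in the iPSCs and 3.66 in the fibroblasts and was not called.

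**Figure D5:**
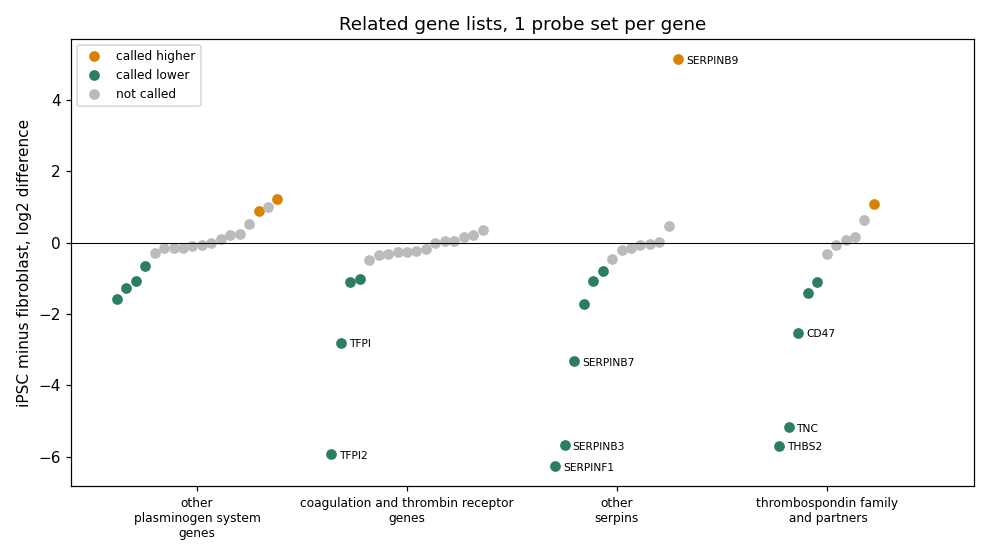
Log2 difference, iPSC minus fibroblast (vertical axis), of the genes of 4 related lists (horizontal axis, sorted within a list), with 1 point for each gene, coloured by whether limma called it. The points of SERPINF1 (-6.26), TFPI2 (-5.94), THBS2 (-5.69), SERPINB3 (-5.68) and TNC (-5.18) are the lowest, and that of SERPINB9 (5.14) is the highest.

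Genes with the pattern closest to each member were found by Pearson's r over the 8 arrays, which share a normalization and fall into 2 cell types, among single-symbol probe sets that span at least 1 on the log2 scale. For THBD these were IL1B, SCG2 and CXCL5 (r of 0.999, 0.999 and 0.999), and 617 of 5109 probe sets had an r over 0.95. For THBS1 they were WIPI1, UAP1 and FAM8A1 (0.997 for each), with 721 probe sets over 0.95, and for PLAUR PLOD2, MAP4K5 and SGCE (0.989, 0.989 and 0.986), with 142 over 0.95. SERPINE2, PLAT and PLAU had 4, 3 and 0 such probe sets. SERPINE2 was nearest to EGFR, TAGLN3 and RRBP1 (0.967, 0.963 and 0.954), PLAT to SELENOP, BTG1 and CAPZB (0.968, 0.963 and 0.957), and PLAU to APTX, HBS1L and GLO1 (0.933, 0.928 and 0.908). Over the 6 colonies alone, in which no fibroblast array enters, PLAU was nearest to ACTN1, ANXA1 and AXL (0.986, 0.979 and 0.955). PLAT was then nearest to TRA2B, ZNHIT3 and SELENOP (0.991, 0.988 and 0.982), PLAUR to FUBP1, SMAD7 and SRSF10 (0.986, 0.983 and 0.983), and THBS1 to PREPL, ARL6IP5 and PAWR (0.989, 0.986 and 0.970). Of the 896 or 897 probe sets compared, 5, 6, 9 and 7 had an r over 0.95 with PLAU, PLAT, PLAUR and THBS1. The 6 colonies come from 2 donors, so these r values also take in the difference between the donors.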

How the data were processed

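Biotin-labelled RNA of 8 cultures was hybridized to Affymetrix human expression arrays. The authors normalized the arrays with RMA in WebArray (version not given in the sources used here) and deposited log2 values, which subtracts background, equalizes distributions and can hide a shift of most transcripts. The number of arrays limits the precision, and low values can understate folds. All 22277 probe sets were then tested on these values with limma 3.58.1 (lmFit and eBayes, R 4.3.3), with thresholds of 1.5-fold and a Benjamini-Hochberg adjusted p of 0.05, two-sided: iPSCs against fibroblasts (8 arrays, no block), the donors' iPSCs (6 arrays) and the interaction (4 groups). The members and gene lists were chosen with earlier results of these data known. Named are all members, the 3 called genes with the largest change each way in a list and the 3 genes most like a member; others were named after their values were seen. The lists of keratinocyte markers (5 measured, 0 called by limma, 1 at an unadjusted p under 0.05), trophoblast markers (6 measured, 2 lower: GATA3, -4.53, and HLA-G, -2.24) and endoderm and early mesoderm markers (6 measured, 3 higher: GATA6, 3.94, AFP, 2.08, and TBXT, 1.63) were checked too. In the platform annotation 19070 probe sets have 1 symbol, 1043 have more than 1 and 2164 lack one. The 2 cell types of a donor come from 1 animal, which pairs them; the donor's deviations in fibroblasts and iPSCs had an r of 0.02. Scripts were tested on simulated data. Human probes can mismatch orangutan transcripts and then read them low.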

Additional observations from a re-analysis of the deposited data

Results flagged for a closer look

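For 3 probe sets the difference between iPSCs and fibroblasts was called as unequal in the donors by limma's interaction test, KB10973 minus KB10460: PLAT (-3.22), SERPINE2 (1.55) and THBD at 203887_s_at (1.22). The fibroblast arrays, 1 for each donor, differed by -0.77, 1.14 and 1.23 at these probe sets (KB10460 minus KB10973), and the iPSC means by -2.45, 0.41 and -0.01 (KB10973 minus KB10460). For THBD the colonies lay near background (2.98 to 3.13), so its value is the gap between 2 single fibroblast arrays (6.02 and 4.79), and the spread of such colonies does not give that of fibroblast cultures. Its call is therefore no evidence of a donor difference in the change. The SERPINE2 value was mostly such a gap too (1.14), so its call also rests on 2 single fibroblast arrays.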

How the results depend on the processing

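Calls on 3 THBS1 and 2 THBD probe sets kept their direction and side of the threshold in every alternative that tested them, and those on 2 PLAUR probe sets in 13 of 14. Member probe sets called lower between the cell types numbered 5 instead of 8 with colonies averaged within donor, and 1 was called higher with the donor as replicate block or without the KB10973 fibroblast array (0 to 1 when an array was left out). The donor block called 4952 probe sets instead of 4850 and changed no other member's call. SERPINE2 became lower by call with a robust trend (adjusted p = 0.048), with low probe sets left out (0.031), without the KB10973 fibroblasts (0.0029) and without KB10973 colony 3 (0.038), all in limma.

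Between the donors' iPSCs, 20 probe sets were called. With the colony number as replicate block 2 were called, with KB10973 colonies 1 and 2 averaged 2, with a robust trend 74 and with arrayWeights 48. Members called lower fell from 1 to 0 with that block and with the averaging, and members called higher rose to 1 with the robust trend (THBS1 201110_s_at, adjusted p = 0.021 in limma). Leaving out a colony gave 1 to 152 calls, with members lower 0 to 1 and higher 0 to 3. The count was 152, 7 and 2 without KB10460 colonies 1, 2 and 3, and 3, 1 and 12 without those of KB10973. Colony numbers pair nothing in the labels, and their deviations had an r of -0.05, -0.01 and 0.06; 1 of 6 colonies correlated best with its own number.

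In the interaction, 648 probe sets were called, 287 when only probe sets with a mean over 5 were tested (members higher 1, since THBD was not tested), and 316 to 940 when a colony was left out (members higher 1 to 2, lower 0 to 1), with 408 without KB10460 colony 3 and 316 and 337 without KB10973 colonies 1 and 2. Small uncalled differences changed sign. The PLAU 205479_s_at interaction was -0.0036 with median centring and -0.18 to 0.41 over the left-out colonies, and that of THBS1 215775_at was -0.014 to 0.10. The donor difference of THBS1 201107_s_at was -0.14 to 0.026 and that of THBD 203887_s_at -0.051 to 0.026. The causes were not tested. Signal over background limits the folds of THBD and of THBS1 201108_s_at, whose values in the colonies lie in the lower part of the scale. How small a difference between colonies could be detected there was not tested. At THBS1 201108_s_at the KB10973 colonies (3.63 to 3.81) lay above those of KB10460 (3.27 to 3.61). The log2 difference was 0.31 (standard error 0.11, adjusted p = 0.40 from limma) and was not called.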
